A study of Mus musculus with 3 samples.

Results

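The excitatory neurons of the mouse brainstem were followed here, as 201 of the 23699 barcodes kept from 3 single-cell RNA libraries. A barcode was kept with at least 500 UMIs (unique molecular identifiers, each standing for 1 captured transcript), 300 or more genes seen, and no more than 15% of UMIs from mitochondrial genes. It was counted as an excitatory neuron when Snap25, Syt1, Rbfox3, Stmn2 and Meg3 together made up at least 20 of every 10000 UMIs, with at least 1 UMI of Snap25, Syt1 or Rbfox3. It also had to carry at least 1 UMI of the vesicular glutamate transporters Slc17a6 or Slc17a7, and more of these than of the inhibitory genes Gad1, Gad2, Slc32a1 and Slc6a5. Barcodes with 30 or more C1qa, C1qb and C1qc UMIs per 10000, or 5 or more of Pdgfra, Olig1 and Sox10, were left out. These 17 genes chose the cells, so their values are descriptions and were not tested.

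The libraries came from whole brainstem of B6(Cg)-Tyrc-2J/J mice, an albino strain on the C57BL/6 background. In the tumour group (tumour 1 and tumour 2), 100000 cells of the murine diffuse midline glioma line DIPG4423 had been injected into the brain at 6 weeks of age, and the brainstem was taken 3 weeks later with no treatment. The sample titles call these mice "Control", as untreated carriers of the graft. The normal group is 1 library from brainstem with no tumour, whose age and injection are not stated. In all groups saline perfusion was followed by grinding in glass, bead depletion of myelin and lysis of red cells. The graft is a single cell line.

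Excitatory neurons release glutamate, which a vesicular transporter loads into synaptic vesicles. Slc17a6 encodes VGLUT2, the transporter of most brainstem, thalamic and deep cerebellar projection neurons. Slc17a7 encodes VGLUT1, used by cortical neurons, by cerebellar granule cells and by some brainstem nuclei, the pontine grey among them. Inhibitory neurons instead make GABA with Gad1 and Gad2 or carry glycine with Slc6a5, and both fill vesicles through Slc32a1.

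Excitatory neurons were rare in the tumour-bearing tissue. They were 20 of 10925 barcodes in tumour 1 (0.183%, exact Clopper-Pearson 95% interval 0.112 to 0.283), 26 of 9645 in tumour 2 (0.270%, 0.176 to 0.395) and 155 of 3129 in the normal library (4.95%, 4.22 to 5.77). The intervals cover counting error only, the normal library has no replicate, and no test was made. A share falls both when neurons are lost and when other cells are added, and these cannot be told apart here.

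Inhibitory neurons, chosen by the same limits with the transmitter genes exchanged, numbered 44, 85 and 163 (0.403%, 0.881% and 5.21% of barcodes). Among neurons with a transmitter call the excitatory share was 31.3% of 64 cells in tumour 1 (20.2 to 44.1), 23.4% of 111 in tumour 2 (15.9 to 32.4) and 48.7% of 318 in the normal library (43.1 to 54.4). The interval of tumour 1 touches that of the normal library and the interval of tumour 2 lies below it. A further 61, 86 and 232 barcodes met the neuron limits with no UMI of either transmitter set. Because a call needs at least 1 such UMI, the depth of a cell enters every one of these shares.

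**Figure D1:**
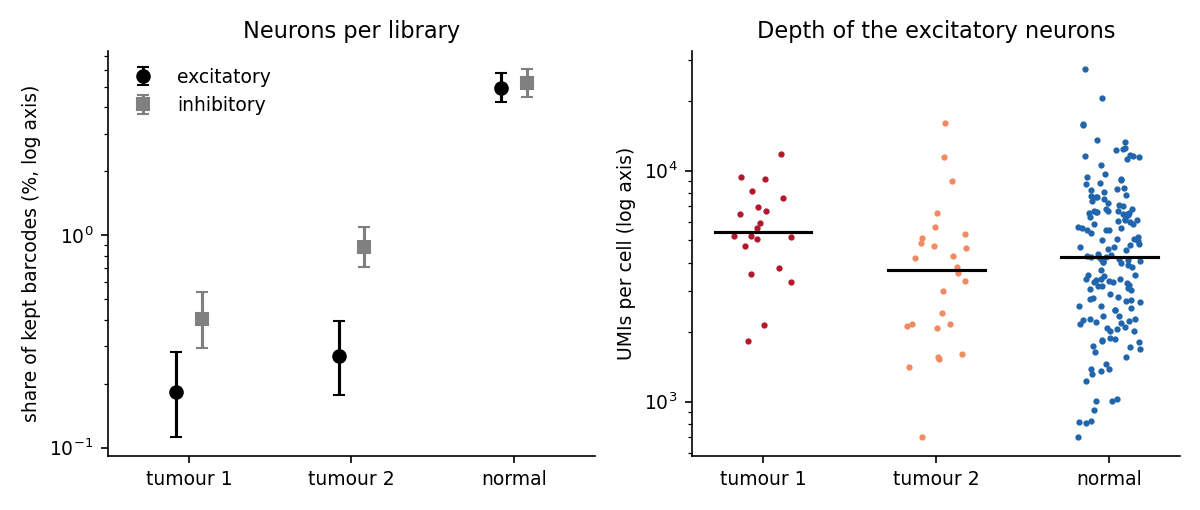
Left, the share of kept barcodes (percent, log axis) that were excitatory or inhibitory neurons in each library, with exact 95% intervals; right, the UMIs of each excitatory neuron (log axis). The excitatory share was 0.183% and 0.270% in the tumour libraries and 4.95% in the normal library, while the median depth was 5436.5, 3710 and 4217 UMIs.

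The median depth of these cells differed less between libraries than that of all kept barcodes. The median excitatory neuron held 5436.5 UMIs in tumour 1 (1826 to 11807), 3710 in tumour 2 (701 to 16137) and 4217 in the normal library (702 to 27484). All kept barcodes had medians of 9012, 11443 and 2429. The neurons together gave 117898, 113469 and 804815 UMIs, so the tumour sums are the shallow side of each comparison below.

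The limits bore unequally on the cells. No member lay between 20 and 30 on the neuron gene score, and only 3 barcodes, all normal, failed solely by a score of 10 to under 20. The transmitter limit was the tight one, because 12 of 20, 17 of 26 and 74 of 155 cells held exactly 1 transporter UMI. Inhibitory UMIs were seen in 1, 0 and 14 members. The C1q limit alone removed 0, 2 and 0 barcodes, and the progenitor limit alone 3, 4 and 0.

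The profile of these cells was rich in nuclear transcripts. Meg3, a long noncoding RNA retained in the nucleus of neurons and 1 of the selecting genes, made up 6.43%, 5.56% and 5.07% of their UMIs. Malat1, a nuclear noncoding RNA that the selection did not use, made up 9.83%, 12.0% and 10.1%, against 2.44%, 2.12% and 5.59% of all kept UMIs. Mitochondrial transcripts had a median share of 0.276%, 0.219% and 0.394%, where all kept barcodes had 4.70%, 3.23% and 2.55%. Ribosomal protein genes gave 1.01%, 2.16% and 0.423% of UMIs, where all kept barcodes gave 13.2%, 16.3% and 6.91%. Whether the barcodes are whole cells or nuclei freed by grinding was not tested.

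**Figure D2:**
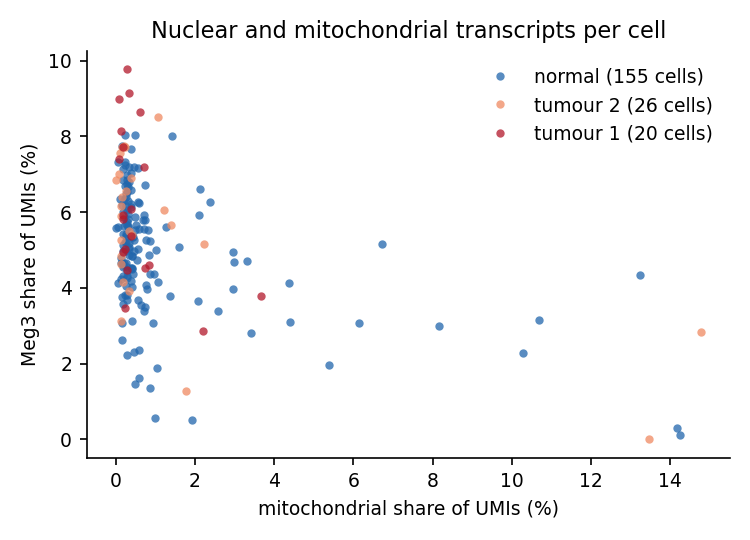
Each point is 1 excitatory neuron, with the mitochondrial share of its UMIs (percent) on the horizontal axis and the Meg3 share (percent) on the vertical axis, coloured by library. Most cells sit near 0 on the mitochondrial axis, with library medians of 0.276%, 0.219% and 0.394%, and a few reach toward the 15% limit.

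Transcripts of other cell types were present in some members. With 14 marker lists of other types, 0 of 20, 6 of 26 and 13 of 155 cells held at least 30 UMIs per 10000 of some list, and these are called mixed-marker cells below. Neutrophil markers (S100a8, S100a9 and others) stood apart: they summed to 25.4, 2397 and 5286 counts per 1000000 UMIs (CPM), against 56.3, 170 and 1603 in inhibitory neurons. The highest normal cell held 3575 neutrophil UMIs per 10000, a second normal cell 560 and the highest tumour 2 cell 402. At least 30 per 10000 of this list were held by 3 normal cells and 1 tumour 2 cell. Neutrophil UMIs were found in 2, 8 and 142 members. After thinning to 1000 UMIs per cell this was 0%, 16% and 50% of members, beside 3.84%, 3.27% and 50.3% of the C1q-high barcodes.

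Microglial markers summed to 297, 1463 and 329 CPM and macrophage markers to 305, 1613 and 198, so tumour 2 was the highest in both. Glial progenitor and glioma markers gave 288, 344 and 59.6 CPM, with 8, 8 and 4 of 10 genes detected, and T and NK cell markers gave 0, 0 and 3.73. The microglial list includes C1qa, C1qb and C1qc, and the progenitor list includes Pdgfra, Olig1 and Sox10. The cell rule capped these genes, so the sums of both lists and the counts of mixed-marker cells are partly set by the selection. Scrublet called 0, 1 and 2 members doublets, and these were kept in the main comparisons. The libraries shared 37 (the tumour pair), 16 (tumour 1 and normal) and 13 barcodes of 12118, 10728 and 4354. Xist, which is expressed from the inactive X of female cells, was found in 2, 3 and 0 members, and Y-linked genes in 20, 18 and 136. Of the members with Xist, 2 of 2 and 2 of 3 also held Y-linked UMIs.

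Slc17a6 was the transporter of most members. It reached 322 CPM in tumour 1, 273 in tumour 2 and 301 in the normal library, and UMIs of it were in 20 of 20, 24 of 26 and 132 of 155 cells. After thinning, 35%, 32% and 31.3% of members still held one. Its share of C1q-high barcodes, which should lack the gene, was 0.112%, 0.0824% and 0.404% at median depths of 5466, 11017 and 1758 UMIs.

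Slc17a7 was found in fewer cells. It was at 0 CPM in tumour 1, 52.9 in tumour 2 and 87.0 in the normal library, in 0, 3 and 34 cells. Members with more Slc17a7 than Slc17a6 UMIs, the Slc17a7 type, were 0 of 20 (exact interval 0% to 16.8%, and 15% by a floor of 3 counts), 2 of 26 (7.69%, 0.946 to 25.1) and 28 of 155 (18.1%, 12.4 to 25.0). These intervals cover counting error and cells with a UMI of a sparsely detected gene, and no test between the groups was made on them. The Slc17a6 type counted 20, 23 and 126 cells, and 0, 1 and 1 cells were tied. Slc17a8, the third vesicular glutamate transporter, was at 8.48, 0 and 3.73 CPM.

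The general neuronal genes of the rule were present in both neuron classes. Snap25, a vesicle fusion protein, was at 433, 555 and 652 CPM in excitatory and 450, 635 and 708 in inhibitory neurons. Syt1, the calcium sensor of release, was at 127, 194 and 252 CPM against 253, 264 and 257. Rbfox3, the NeuN splicing factor, was at 178, 212 and 150 CPM against 158, 182 and 124. Gad1 was at 0, 0 and 2.49 CPM and Gad2 at 25.4, 0 and 11.2, as the limits require.

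Regional genes bore on the brainstem label. Hox genes, which are expressed behind the midbrain, were detected for 9, 5 and 12 of 15 listed genes, with 178, 115 and 114 CPM in sum (21, 13 and 92 UMIs). Inhibitory neurons had 231, 237 and 161 CPM, all other kept barcodes 65.8, 55.7 and 40.3, and C1q-high barcodes 12.8, 14.3 and 10.7. Listed midbrain and thalamic genes summed to 67.9, 106 and 230 CPM and forebrain cortical genes to 212, 159 and 244. UMIs of the wider hindbrain and spinal list were seen in 38 of 126 and 8 of 28 normal members of the Slc17a6 and Slc17a7 types, so the region of most single cells is not shown by these genes, and the label rests on the dissection.

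Genes of cerebellar granule neurons were concentrated in the Slc17a7 type of the normal library. The 16 listed genes, which do not include Slc17a7, summed to 1690 CPM over its 28 cells and to 272 CPM over the 126 cells of the Slc17a6 type, beside 180 CPM in C1q-high barcodes. Of the 195 UMIs behind the first value, 47 and 44 lay in 2 cells, the former at 14.3% mitochondrial UMIs, and the sum without both was 1080 CPM. At least 2 of Gabra6, Cbln3, Fat2, Zic1 and Neurod1 were seen in 10 of 28 cells (35.7%, 18.6 to 55.9) and in 10 of 126 (7.94%, 3.87 to 14.1). No tumour member met that count. Only the normal library had 5 or more cells of each type, so the types were not tested and ratios below carry counting intervals alone.

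Several genes of the granule list stood far apart between the types. Zic1, a cerebellar transcription factor, was at 399 CPM in the Slc17a7 type and 42.4 in the Slc17a6 type (46 and 29 UMIs, ratio 9.41, 5.79 to 15.5). Fat2, a granule cell protocadherin, was at 173 and 13.1 CPM (ratio 13.2, 5.74 to 32.9). Gabra6, the GABA receptor subunit of mature granule cells, was at 139 and 14.6 CPM (ratio 9.50, 4.05 to 23.4). These UMIs came from 13, 9 and 7 of the 28 cells, so no gene marked the whole type. Without the 2 cells with the most granule list UMIs the ratios were 6.86, 6.32 and 4.97.

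Etv1, from the same list, was at 182 and 35.1 CPM (ratio 5.19, 2.75 to 9.74, and 2.07 without those 2 cells). Genes outside the list went with Slc17a7 too. Nfib, a nuclear factor of hindbrain precursors, was at 607 and 89.1 CPM (ratio 6.81, 4.76 to 9.76). The kainate receptor gene Grik1 was at 364 and 107 CPM (3.41, 2.28 to 5.06). Cplx2 was at 234 and 23.4 CPM, but its 27 UMIs in the Slc17a7 type lay in 4 cells, and without those 2 cells 6 UMIs remained.

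Transcription factors of other regions were seen in the Slc17a6 type. Meis2, a homeobox factor, had 161 UMIs in 58 of its cells and 0 in the Slc17a7 type (235 CPM, at least 9.04-fold higher against a floor of 3 counts over the group). Lhx9 had 56 UMIs against 0 (at least 3.15-fold) and Tcf7l2, a factor of thalamic and midbrain neurons, 57 against 0 (at least 3.20-fold). Tcf7l2 is no measure of region here, since other barcodes hold it too: it was at 70.8 CPM in all normal members, 104 in the other kept barcodes and 228 in C1q-high barcodes, and in 6% of thinned members against 21.4% of C1q-high barcodes. Lhx9 was at 69.6, 4.20 and 2.67 CPM. The noncoding RNA Rmst was at 662 CPM against 234 (ratio of the Slc17a7 to the Slc17a6 type 0.354, 0.231 to 0.522). Median depth was 4312 UMIs in the Slc17a6 type and 3063.5 in the other, and the neutrophil gene S100a8 differed too (2994 and 234 CPM). However, 1 cell of the Slc17a6 type held 3361 UMIs of the neutrophil list. Without the cell with the most S100a8 UMIs, all normal members together were at 509 CPM of this gene.

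**Figure D3:**
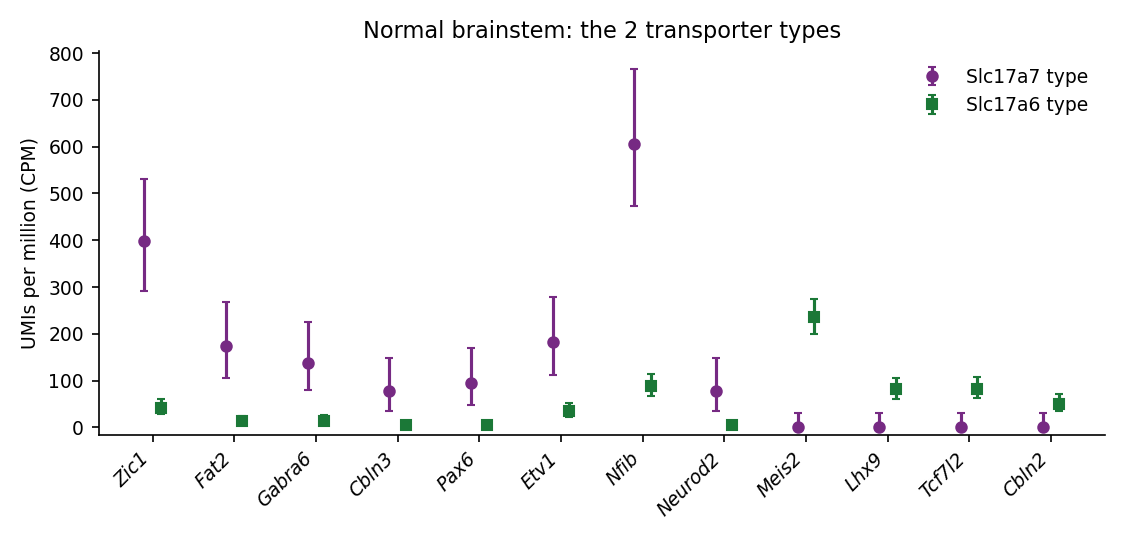
CPM of selected genes in the 28 Slc17a7-type and 126 Slc17a6-type neurons of the normal library, with exact Poisson intervals for counting error. Zic1, Fat2 and Gabra6 are higher in the Slc17a7 type (399, 173 and 139 CPM) and Meis2 is seen only in the Slc17a6 type (235 CPM).

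Excitatory and inhibitory neurons of the same libraries were then compared on the genes that had not chosen them. Of 7378 genes tested, 38 were higher in excitatory neurons (0.515%) and 22 lower (0.298%) by edgeR's quasi-likelihood test with library as a block and Benjamini-Hochberg adjustment. At an unadjusted p under 0.05 there were 343, which is below 0.05 of the genes tested. DESeq2 called 2 higher and 1 lower, which were Cacna2d1, Ebf1 and Nrxn3. Without the normal library edgeR also called 2 and 1. That fit tested only 3327 genes. Of the genes named by the rule given below, 3 kept their call there, 6 were weaker and the others gave no value. Genes described below that lost their call, by adjusted p, included Ebf1 and Neat1 (0.0703 each), C1ql3 (0.0969) and Cacna2d3 (0.137). Lamp5, Miat and Grik2 (0.995 each) lost it too. The spread was pooled over genes (infinite prior degrees of freedom, 2 residual), so the small p-values rest on that shared estimate.

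Cacna2d1, the calcium channel subunit alpha2delta-1 (chromosome 5, 15934691 to 16374511, GRCm38), separated the classes most clearly. It was at 297, 441 and 503 CPM in excitatory neurons and 22.5, 36.4 and 69.4 in inhibitory neurons. It was 3.10 higher on the log2 scale (SE 0.205, adjusted p = 2.12e-47). UMIs of it were in 70%, 65.4% and 74.8% of excitatory neurons, which became 15%, 20% and 40% after thinning, beside 0.28%, 0.618% and 0.943% of C1q-high barcodes. The related subunit gene Cacna2d3 went the other way, at 42.4, 26.4 and 63.4 CPM against 163, 161 and 201 (log2 -1.81, SE 0.247, adjusted p = 1.55e-10). Of 13 tested calcium channel genes these were the only calls, and the list's median was 0.02 beside -0.00 over all genes.

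Transcription factors of the excitatory lineage followed. Of 27 listed genes 15 were tested, with 3 higher, 0 lower and a median of 0.18. Ebf1, a helix-loop-helix factor, was at 127, 317 and 273 CPM against 39.4, 85.0 and 62.5 (log2 2.01, SE 0.22, adjusted p = 6.15e-17). In tumour 2, 26 of its 36 UMIs lay in 1 cell, and without that cell the level was 98.0 CPM. Without tumour 2 altogether the log2 difference was 2.06 (adjusted p = 2.57e-13). Lhx9, a LIM homeobox factor, was at 25.4, 44.1 and 69.6 CPM against 0, 0 and 5.79 (log2 3.92, SE 0.681, adjusted p = 3.48e-06). It had 3 and 5 UMIs in the tumour libraries, 4 of the 5 in 1 cell. The third, Meis2, was at 229, 282 and 201 CPM against 135, 200 and 112. In tumour 2, 17 of its 32 UMIs lay in 1 cell, and the level without it was 154 CPM. Across the set its adjusted p went from 0.0178 to 0.308 when mixed-marker cells were left out. Tcf7l2, from the midbrain and thalamic list, was at 8.48, 8.81 and 70.8 CPM against 5.63, 3.04 and 10.4 (log2 2.45, adjusted p = 0.019), and most of that gap lay in the normal library.

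Secreted and surface proteins of synapses were among the higher genes. Nrn1, the neurite growth protein neuritin, was at 84.8, 123 and 186 CPM against 0, 0 and 18.5 (log2 3.78, SE 0.355, adjusted p = 3.48e-23). C1ql3, a secreted synaptic organiser, had 34 UMIs in excitatory and 2 in inhibitory neurons (ratio 22.5, counting interval 5.77 to 193, adjusted p = 0.00381). Reln, which guides neuronal migration and acts at synapses, was at 67.9, 44.1 and 75.8 CPM against 22.5, 18.2 and 17.4 (log2 1.85, adjusted p = 0.000426). In all 3 genes every excitatory sum lay above every inhibitory sum. The naming rule already asked for the same direction in every library, and the share of all tested genes without overlap was not counted. Bdnf, at 33.9, 26.4 and 46.0 CPM against 11.3, 9.11 and 8.10, did not pass (log2 2.09, adjusted p = 0.17).

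Nrxn3, a presynaptic adhesion protein (chromosome 12, 88722876 to 90334935, GRCm38), led the lower genes. It was at 187, 185 and 347 CPM in excitatory and 828, 905 and 932 in inhibitory neurons (log2 -1.79, SE 0.161, adjusted p = 2.92e-25). Cacna2d1 and Nrxn3 passed in all 15 alternatives that gave them a value. In the list of neurexins, neuroligins and BDNF signalling, C1ql3 and Nrxn3 were the calls among 11 tested genes.

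Of 18 listed inhibitory lineage genes 5 were tested, and 4 of these were lower in excitatory neurons, with a median of -2.09. The expression filter keeps a gene that is high enough in any sum. Gata3, Pax2 and Lhx1 were too low in the excitatory sums to enter through them, so this count and median are partly set by the filter. Gata3, a factor of midbrain and hindbrain inhibitory neurons, had 1 UMI in excitatory and 62 in inhibitory neurons (ratio 46.9, 8.11 to 1881). Pax2, a factor of dorsal hindbrain inhibitory neurons, had 3 and 59 UMIs (14.9, 4.84 to 74.1). Lhx1 was at 8.48, 0 and 18.6 CPM against 33.8, 54.7 and 60.2 (log2 -1.94, adjusted p = 0.00381). These genes lie close to the genes that chose the cells, since the lineage they mark is the one whose transmitter genes were used.

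Further lower genes had varied roles. Slc30a3, a vesicular zinc transporter, was at 17.0, 0 and 3.73 CPM against 39.4, 63.8 and 44.0 (log2 -3.13, adjusted p = 0.000264). The noncoding RNA Sox2ot was at 0, 17.6 and 11.2 CPM against 33.8, 63.8 and 67.1 (log2 -2.53, adjusted p = 2.22e-05). Lamp5 was at 76.3, 35.3 and 16.2 CPM against 107, 54.7 and 69.4 (log2 -1.39, adjusted p = 0.00817), and its groups overlap. Gdap1l1 had an adjusted p of 0.0302, which became 0.113 without mixed-marker cells and 0.17 without tumour 2.

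**Figure D4:**
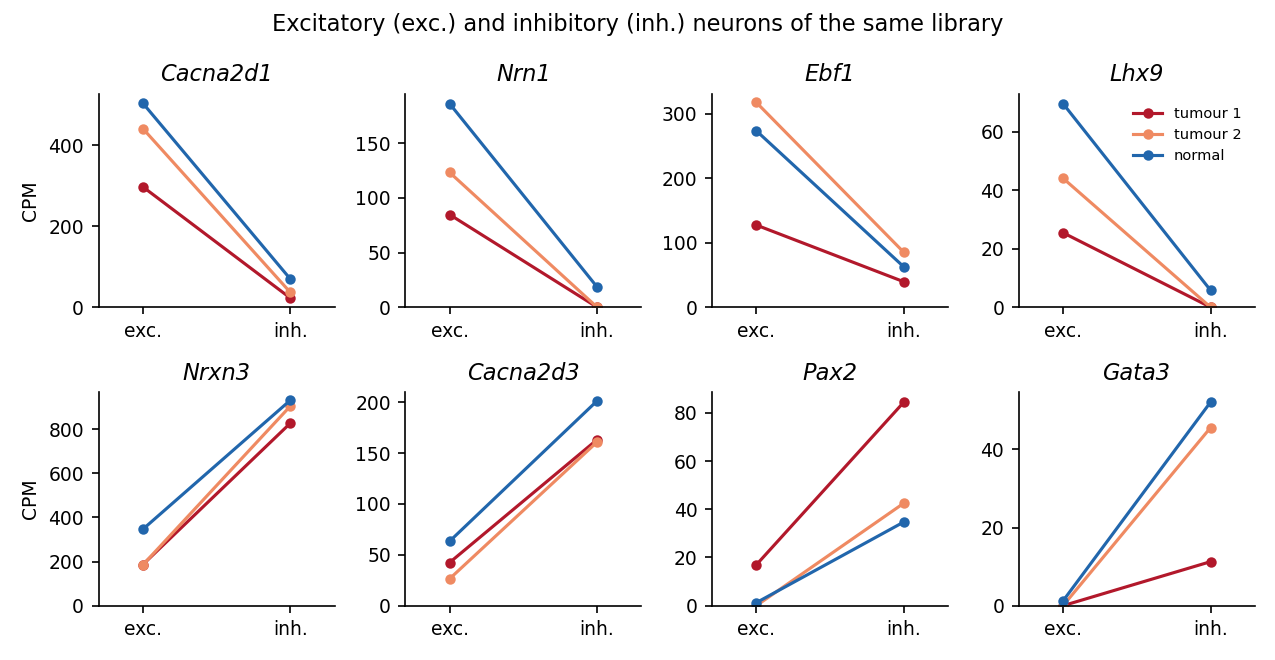
CPM of genes in the summed excitatory (exc.) and inhibitory (inh.) neurons, with a line joining the sums of the same library. Cacna2d1 lies at 297 to 503 CPM in excitatory and 22.5 to 69.4 in inhibitory neurons in every library, and Nrxn3 lies at 185 to 347 against 828 to 932.

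Lists of general neuronal genes held few calls. None of 30 vesicle release genes, 6 NMDA receptor genes, 7 metabotropic glutamate receptor genes, 15 GABA and glycine receptor genes, 15 postsynaptic scaffold genes, 13 sodium and 23 potassium channel genes was called by edgeR. Their medians ran from -0.04 to 0.08. Among 14 AMPA, kainate and delta receptor genes only Grik2, a kainate subunit, was called, at 221, 282 and 329 CPM against 428, 383 and 483 (log2 -0.61, adjusted p = 0.022). Without tumour 1 its adjusted p was 0.301.

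Some calls moved with the transcripts of other cells. Of the neutrophil list 5 of 7 tested genes were higher and 1 lower. Ngp, a granule protein of neutrophil precursors, was at 8.48, 17.6 and 294 CPM against 0, 0 and 40.5, with 197 of its 237 normal UMIs in 1 cell. Its log2 difference went from 2.90 to 0.50 (adjusted p = 0.999) without mixed-marker cells. S100a11 had 19 of its 22 tumour 2 UMIs in 1 cell. Dusp1, Egr1 and Junb, early response genes, were higher through tumour 2, where 1 cell held 69 of 69, 43 of 44 and 35 of 37 UMIs. Without tumour 2 the log2 differences of Egr1 and Junb were -0.14 and -0.34. Without mixed-marker cells 27 genes were higher and 17 lower, of which 25 and 17 were among the calls above.

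Mitochondrial transcripts were higher in 6 of 12 cases, with a median of 0.61. Their sums were 6853, 22306 and 9142 CPM in excitatory against 9115, 7663 and 7478 in inhibitory neurons, so tumour 1 went the other way. At a mitochondrial limit of 10% the log2 difference of mt-Atp6 was -0.0648 in place of 0.61, and without tumour 2 it was 0.07. The noncoding RNAs Neat1 (195, 538 and 111 CPM against 90.1, 100 and 48.6, adjusted p = 7.6e-11) and Miat (1040, 767 and 952 against 619, 522 and 630, adjusted p = 0.0028) were higher in each library. Without its top cell Neat1 in tumour 2 was at 206 CPM. Without tumour 1 the adjusted p of Miat was 0.0529.

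Tumour-bearing and normal brainstem were compared within the excitatory neurons over 3428 genes. EdgeR called 0 higher (0% of genes) and 0 lower (0%). At an unadjusted p under 0.05 there were 129 higher and 53 lower. Together these were 182 of the 3428, slightly over the 0.05 that this limit passes on average when no gene differs. DESeq2 called 4 higher and 0 lower. In the 10 other edgeR settings, which tested 436 to 13901 genes, 1 to 90 genes were higher and 2 to 12 lower. The prior degrees of freedom were 7.23 here and infinite, or 56.0 in 1 case, in those settings, which also changed the cells, the filter or the scaling, and the cause of the difference in counts was not tested. The fit has 1 residual degree of freedom, from the tumour pair, and takes the lone normal library to vary as they do.

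Genes with a large positive difference included some that were also higher in the other barcodes of the tumour libraries. Cd9, a tetraspanin of glia and immune cells, was at 195 and 185 CPM in the tumour libraries and 6.21 in the normal one, and at 1546, 1240 and 305 CPM in all other barcodes. Its log2 difference of 4.91 (SE 0.603) had an adjusted p of 0.085 by edgeR and 0.00968 by DESeq2. Ftl1, the ferritin light chain, was at 280, 582 and 29.8 CPM (log2 3.92, edgeR adjusted p = 0.104), and at 4556, 4832 and 794 in other barcodes. Apoe, a lipid carrier of glia, was at 280, 1428 and 69.6 CPM (log2 3.73, edgeR adjusted p = 0.461), and at 5629, 13128 and 1086 in other barcodes.

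Ribosomal protein genes lay to the same side. All 78 tested had positive log2 differences, with a median of 2.05 (0.48 to 3.64) beside 0.03 over all genes, and 61 had an unadjusted p under 0.05, but edgeR called 0 after adjustment. This group was formed after its values were seen. The expression filter keeps a gene that is high enough in any library, so a gene could enter through the tumour sums alone. The count of positive differences and the median are therefore partly set by the filter. Rpl19 was at 221 and 379 CPM in the tumour libraries and 24.9 in the normal one, and at 2528, 2773 and 760 in other barcodes (log2 3.64, adjusted p = 0.104 by edgeR and 0.0208 by DESeq2). Inhibitory neurons had 253, 252 and 53.2 CPM of Rpl19. When mixed-marker cells were left out, 47 genes were higher and 7 lower, and 30 of the 47 were ribosomal. The part of transcripts from surrounding cells in these values was not tested.

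Vcan, a matrix proteoglycan of glial progenitors, was at 288, 185 and 49.7 CPM (log2 2.28, edgeR adjusted p = 0.23), beside 995, 527 and 25.6 in other barcodes. Without the top cell of each library it was at 153, 74.8 and 39.1 CPM. Xist had 33 UMIs over the tumour members and 0 over the normal ones (at least 38.3-fold higher, edgeR adjusted p = 0.104). The UMIs lay in 5 cells, with 15 of 20 and 11 of 13 in 1 cell of each tumour library, and other barcodes held 790, 499 and 0.286 CPM. Ngp went the other way, with 3 and 237 UMIs (normal over tumour 22.7, 7.68 to 111). With the normal cell that held 197 of these left out, the ratio was 3.88 (1.24 to 19.6), and other barcodes held 61.9, 71.2 and 6929 CPM.

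A few neuronal genes were lower in the tumour libraries without passing edgeR's adjustment in the reported fit. Mir124a-1hg, the host transcript of the neuronal microRNA miR-124, was at 305 and 247 CPM in the tumour libraries and 814 in the normal one (log2 -1.51, adjusted p = 0.28). It is nearly absent from the other tumour barcodes (2.53 and 2.88 CPM, 143 in the normal library), and inhibitory neurons had 372, 298 and 852 CPM. Pcsk2, a prohormone convertase, was at 76.3, 52.9 and 208 CPM (log2 -1.63, adjusted p = 0.461), and in inhibitory neurons at 101, 57.7 and 94.9. Both tumour values lay below the normal value for each gene. These genes were chosen after their values were seen, and the share of all tested genes with that order was not counted. Mir124a-1hg and Pcsk2 were among the 7 genes that edgeR called lower when mixed-marker cells were left out, a setting chosen after seeing the data.

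Synaptic genes gave no call. Vesicle release genes had a median log2 difference of -0.13, with 6 of 22 positive. Unc13a, which primes vesicles, was at 170, 123 and 326 CPM (log2 -1.10, adjusted p = 0.64). AMPA, kainate and delta receptor genes had a median of 0.01. Gria2, an AMPA receptor subunit, was at 2960, 1745 and 3094 CPM (log2 -0.37), so the tumour pair spans a wider range than the gap of tumour 1 to the normal library. NMDA receptor, sodium, potassium and calcium channel genes had medians of -0.18, -0.24, -0.17 and -0.29.

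**Figure D5:**
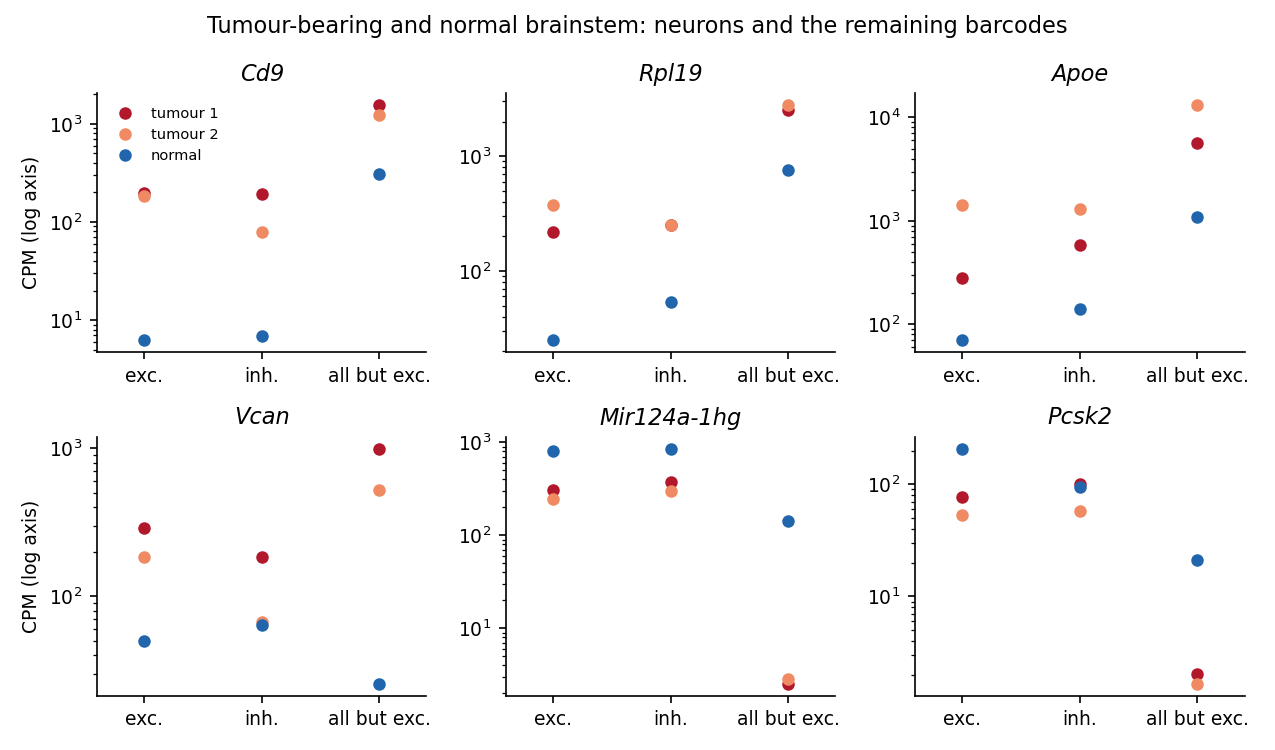
CPM (log axis) of genes in excitatory neurons (exc.), inhibitory neurons (inh.) and all barcodes but the excitatory neurons, by library. Cd9 and Rpl19 are higher in tumour excitatory neurons (195 and 185 against 6.21 CPM, and 221 and 379 against 24.9) and also in the other barcodes. Mir124a-1hg is lower in the tumour libraries in both neuron classes and also in the other barcodes.

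Whether the tumour to normal difference was itself another one in excitatory than in inhibitory neurons was tested over 7378 genes. EdgeR called 0 higher (0%) and 0 lower (0%), with 146 at an unadjusted p under 0.05, and DESeq2 called 0, with 3 under that p. Both counts are below 0.05 of the genes tested. On simulated counts (7286 genes) this test found 0% of 92 genes changed 2-fold and 7.69% of 91 changed 4-fold, so its count of 0 says little.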

How the data were processed

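The authors deposited UMI counts, whole and not normalized, for 3 libraries of 32285 features. Cell Ranger 6.1.2 is named in the file headers, and the submitters' processing notes give the build mm10. Whether intronic reads were counted is not given in the sources used here. Gene positions are from GENCODE M21 (GRCm38), in which 32158 identifiers matched and 127 did not.

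Counts were summed per library and neuron class, and CPM is UMIs per 1000000 in such a sum. The sums were tested with edgeR 4.0.16 in R 4.3.3 (quasi-likelihood test, TMM, filterByExpr, Benjamini-Hochberg threshold 0.05), leaving out the 17 selecting genes. The filter keeps a gene that is high enough in any sum. A gene low on one side could thus be tested through the other side alone, which bears on the counts and medians of gene lists. Each SE is the size of the log2 difference over the square root of the quasi-likelihood F statistic, so it is no separate measure of spread. Excitatory and inhibitory sums come from the same library, so library was a block. DESeq2 1.42.0, other scalings, filters and cell limits were alternatives. The labels name separate mice in titles only, so the p-values cover only how far these libraries differ, which may be technical. Doublets were called with Scrublet in scanpy 1.11.5 (rate 0.08) and removed only as an alternative.

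The cells, the 34 gene lists and 18 marker lists (655 genes, all found) were chosen with earlier results of these data known. Named genes were up to 10 per direction with the largest change at an adjusted p under 0.05 at least 20 UMIs on the higher side and the same direction in every library that could show it, plus list members; Cd9, Ngp, Xist, Ftl1, Rpl19, Apoe, Mir124a-1hg, Pcsk2, Vcan, Dusp1, Egr1, Junb and others discussed beside them were chosen after their values were seen. On simulated counts the comparison of classes (7279 genes) found 13% of 92 genes changed 2-fold and 84.1% of 88 changed 4-fold, and 3 of its 89 calls were false. The comparison of tumour with normal (3452 genes) found 9.59% of 73 genes changed 2-fold and 65.5% of 84 changed 4-fold, and 1 of its 63 calls was false. All simulated counts had the same dispersion for every gene and no library effect beyond depth. Whether the real comparisons find such shares was therefore not tested. Shares have exact Clopper-Pearson intervals, and ratios and floors (3 counts) cover counting error only. Some genes are not reported here.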

Additional observations from a re-analysis of the deposited data

How the results depend on the processing

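Counts of called genes depended on the settings, and the shares of cells on the transmitter limit. Higher and lower genes in tumour against normal were 0 and 0, and became 67 and 12 with a filter of at least 3 UMIs in place of filterByExpr, 90 and 9 with RLE scaling, 65 and 6 with library size alone, 76 and 10 at a mitochondrial limit of 10%, 23 and 4 with at least 2 transmitter UMIs, 65 and 5 without Scrublet doublets, 1 and 2 after thinning to 1000 UMIs, and 58 and 10 without cells holding Xist, Cdkn2a or Pnlip; DESeq2 gave 4 higher. Chosen after seeing the data, the Slc17a6 type alone gave 82 and 10 and leaving out mixed-marker cells 47 and 7. The settings tested unlike numbers of genes, so these counts are not shares of 1 set. Tested were 3428 genes in the reported fit, 13901 with the 3-UMI filter, 1467 with at least 2 transmitter UMIs and 436 after thinning. Excitatory against inhibitory neurons gave 38 and 22, and 25 and 14 with RLE, 2 and 1 with DESeq2, 14 and 11 with at least 2 transmitter UMIs, 8 and 3 after thinning, and 21 higher without cells holding Xist, Cdkn2a or Pnlip. With no replicate block it gave 1 and 1, beside the block by library of the reported fit. Leaving out 1 library gave 2 to 55 higher and 1 to 22 lower, the lowest without the normal library. Tested for the classes were 7378 genes in the reported fit, 5894 with at least 2 transmitter UMIs and 2385 after thinning. Without the normal library 3327 were tested, and without tumour 1 9735. The difference between the classes' tumour effects gave 0 and 0, and 5 higher with RLE, library size or the Slc17a6 type, 4 at the 10% limit, 1 without Scrublet doublets or mixed-marker cells, and 1 lower with at least 2 transmitter UMIs. At least 2 transmitter UMIs lowered the excitatory shares to 0.0732%, 0.0933% and 2.59%; leaving out cells with Xist, Cdkn2a or Pnlip raised the tumour shares to 0.375% and 0.401%, since it removes more of the other barcodes. Log2 signs turned for S100a8 (-0.53) and S100a9 (-0.58) without Scrublet doublets, S100a9 (-0.0556) without mixed-marker cells, mt-Atp6 (-0.0648 at the 10% limit, -0.0305 with at least 2 transmitter UMIs), and, on leaving out 1 library, Egr1 (-0.14 without tumour 2 to 2.29) and Junb (-0.34 to 2.48). Levels without the cell that held the most UMIs, and the Slc17a7 type without 2 cells, were also computed after seeing the data. Apart from what the constructions above fix, the cause was not tested. No paired analysis was possible because the labels pair no tumour library with the normal one. Leaving out a tumour library left 1 against 1 with no residual degrees of freedom, so those counts have no value, and the 2 transporter types could not be tested.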
